A study of Homo sapiens with 6 samples.

Results

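Binding of SON and HMGB2 was examined at 10 genes of the actin cytoskeleton and of contraction, out of 19974 protein-coding genes on chromosomes 1 to 22 and X: the actins ACTB, ACTG1 and ACTA2, the actin-associated and motor genes TAGLN, MYL9, MYH9, TPM1 and FLNA, and the secreted matricellular genes CCN1 and CCN2. The genes were given as a list, which was drawn up with earlier results of these data known. Each gene was read as its RefSeq span (GRCh38.p14) plus 5 kb on each side, referred to as its window. SON is a core protein of nuclear speckles, and HMGB2 is a DNA-bending protein of the high mobility group. Both were mapped by ChIPmentation, in which antibody-bound chromatin is tagged with sequencing adapters by a transposase on the beads, in IMR90, an established human fetal lung fibroblast line. The groups were SON in untreated cells, SON after 3 days and after 6 days of a treatment the labels name only as ICM, and HMGB2 in untreated cells. Cells for SON were fixed with 1% formaldehyde for 10 minutes. Cells for HMGB2 were fixed first with the protein crosslinker EGS at 1.5 mM for 20 minutes and then with formaldehyde, so target and fixation cannot be told apart. There was 1 peak list per group, so no difference between conditions could be tested, and the depth of the libraries is unknown. An input and a further HMGB2 sample, titled with DSG, were not analysed here.

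Actin filaments are built from actin monomers and are crosslinked by filamins, wrapped by tropomyosins and pulled by non-muscle and smooth muscle myosins. Free actin holds the coactivators MRTFA and MRTFB in the cytoplasm, and when filaments form, these coactivators join the factor SRF at CArG boxes of actin and contractile genes. Tension also brings YAP and TAZ into the nucleus, where they act through TEAD factors on CCN1 and CCN2. Of the members, ACTA2 marks the myofibroblast state in fibroblasts.

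A group of 4 members with a RefSeq promoter entry carried a SON or HMGB2 peak over the bases before an annotated start, and ACTA2 did so at its internal start. The 250 bases before these starts are shown (GRCh38.p14, 5′ to 3′ on the gene's strand) because the peaks described below lie on them. Capitals mark CArG boxes, the TEAD site GGAATG, the TATA box TATAAA and the SP1 site GGGCGG, each searched on both strands, and some SP1 sites share bases.

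ACTG1, chr17:81512800-81513049, minus strand: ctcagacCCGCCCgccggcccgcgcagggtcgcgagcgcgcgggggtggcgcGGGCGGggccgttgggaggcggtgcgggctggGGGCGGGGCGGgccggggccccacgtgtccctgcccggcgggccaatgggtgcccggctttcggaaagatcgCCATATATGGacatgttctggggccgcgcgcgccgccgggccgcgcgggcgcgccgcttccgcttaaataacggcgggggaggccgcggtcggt

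CCN2, chr6:131951373-131951622, minus strand: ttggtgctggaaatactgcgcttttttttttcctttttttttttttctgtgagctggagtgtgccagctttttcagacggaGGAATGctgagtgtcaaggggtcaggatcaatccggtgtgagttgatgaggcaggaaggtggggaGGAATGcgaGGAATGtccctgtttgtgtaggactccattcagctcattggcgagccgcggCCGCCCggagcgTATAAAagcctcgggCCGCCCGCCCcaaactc

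MYH9, chr22:36387968-36388217, minus strand: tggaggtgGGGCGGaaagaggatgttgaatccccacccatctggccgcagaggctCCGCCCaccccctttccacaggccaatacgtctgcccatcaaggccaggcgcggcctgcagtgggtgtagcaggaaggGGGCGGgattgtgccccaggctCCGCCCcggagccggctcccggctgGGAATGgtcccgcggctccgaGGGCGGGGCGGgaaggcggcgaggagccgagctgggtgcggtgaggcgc

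TPM1, chr15:63048239-63048488, plus strand: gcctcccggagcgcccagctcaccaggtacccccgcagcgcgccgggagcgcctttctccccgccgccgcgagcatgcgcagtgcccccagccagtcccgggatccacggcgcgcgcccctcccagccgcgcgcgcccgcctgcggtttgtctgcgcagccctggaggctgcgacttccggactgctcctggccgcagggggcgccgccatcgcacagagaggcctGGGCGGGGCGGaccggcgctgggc

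ACTA2, internal start, chr10:88952774-88953023, minus strand: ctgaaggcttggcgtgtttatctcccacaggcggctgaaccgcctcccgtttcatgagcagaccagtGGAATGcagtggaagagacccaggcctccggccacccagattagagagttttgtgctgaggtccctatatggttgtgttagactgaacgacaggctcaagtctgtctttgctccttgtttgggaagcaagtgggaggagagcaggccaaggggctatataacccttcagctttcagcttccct

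The untreated SON peak covered 190 of these 250 bases at ACTG1, 250 at CCN2, 250 at MYH9 and 248 at TPM1, and none at the internal start of ACTA2. The HMGB2 peaks covered 138 bases at ACTG1, 112 at CCN2, 237 at MYH9 and 181 at ACTA2, and none at TPM1. ACTG1 held a strict CArG box from 94 to 85 bases before the start. FLNA, whose promoter carried no peak, held another at the same distance. Strict CArG boxes were present in 1.16% of the 35116 RefSeq promoter stretches of this length. CCN2 held 3 TEAD sites and a TATA box, MYH9 held 1 TEAD site and the internal ACTA2 promoter 1. TEAD sites were present in 11.9% of all promoter stretches, TATA boxes in 10.7% and SP1 sites in 42.6%. SP1 sites were in 6 of the 7 stretches of the members. The AP-1 site TGANTCA, present in 6.57% of all, was in none of the 7. These matches are letters only and were not tested as binding sites. The promoter table has no entry for ACTB, TAGLN, MYL9 or CCN1.

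HMGB2 was found at nearly all of these genes, and at most of them more than once. A peak lay in the window of 9 of the 10 members, against 23.3% of all protein-coding genes. At 7 members there were 3 or more HMGB2 peaks, a number reached by 1.95% of all genes. Since the list was drawn up with earlier results of these data known, these counts describe the members and test no enrichment. Windows of the long genes are wider and can hold more peaks, and the part of window width in these counts was not tested. Of the 6 members with a span under 10 kb, 5 carried an HMGB2 peak, against 19.9% of genes of that size. SON counts were nearer to those of all genes: 8 members carried a peak in untreated cells (57.1% of all genes), 5 at 3 days (41%) and 3 at 6 days (21.5%). Of the short members 4 of 6 carried an untreated SON peak, against 40.2% of genes of that size. Only MYL9 had no peak in any list. MYH9, FLNA and CCN2 had peaks in all 4 lists, as did 10.6% of all genes.

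The fall from 8 to 5 to 3 members runs beside the shortening of the lists, which held 22362, 11158 and 5583 peaks. With every SON list reduced to its 5481 strongest peaks, the counts were 4, 4 and 3 members, where the shares of all genes were 26.2, 27.2 and 21.5%. The authors' −log10 p of a peak is therefore used to place it within its own list, by rank or by percentile (the share of peaks in the list with a lower value), and not to compare lists. In the SON lists this value is the lower of 2 replicates. The global irreproducible discovery rate (IDR), an estimate of the share of irreproducible peaks among those at least as well ranked, stands beside it.

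**Figure D1:**
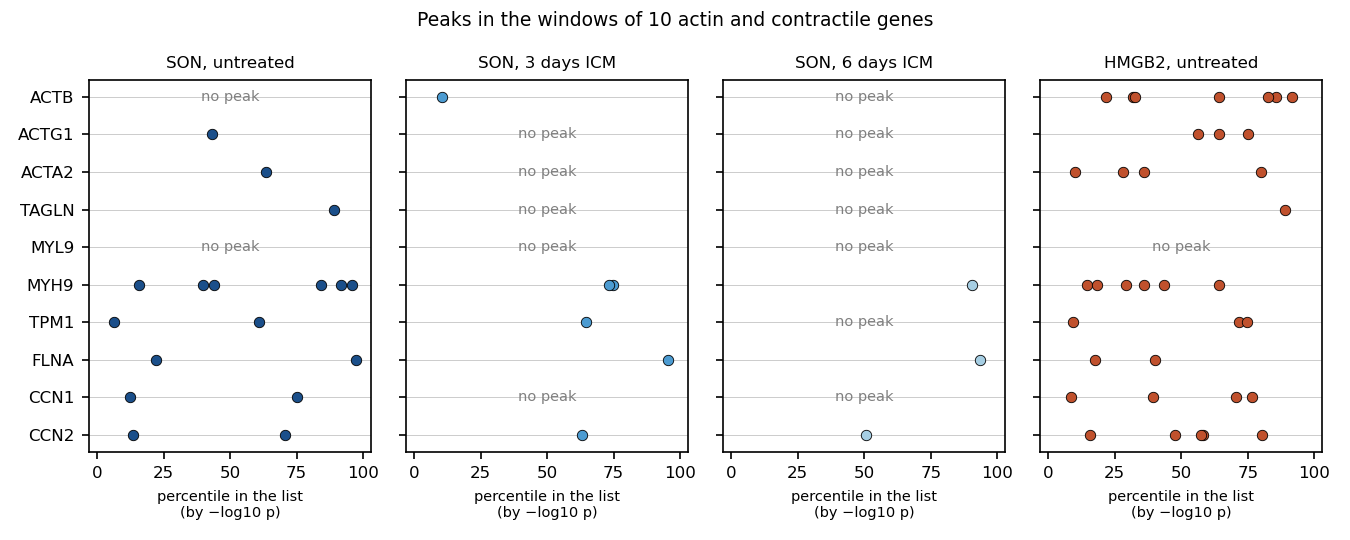
Percentile by −log10 p of every peak in the windows of the 10 genes, within its own list (x axis), by gene (y axis), 1 panel per list. HMGB2 peaks are many and spread over the whole list, from the 8.63 percentile (CCN1) to the 91.5 percentile (ACTB), while the treated SON lists hold 6 and 3 peaks.

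The cytoplasmic actins ACTB and ACTG1 supply most filaments of non-muscle cells. ACTB (chromosome 7, 5527148 to 5530601) carried 7 HMGB2 peaks, a number reached or passed by 33 genes, ACTB included. Of these, 1 lay in the gene, where the −log10 p was 8.17 and the fold enrichment over the caller's background 5.24. The other 6 lay in a row beyond the lower-coordinate end of the span, with peak points 0.714 to 4.73 kb from it. ACTB is transcribed towards lower coordinates (background knowledge, not in the tables used), so this row lies past the 3′ end of the gene, and 5 of its peaks overlap the non-coding gene LOC221946. Their −log10 p ranged from 7.38 to 18.1 and their fold from 4.76 to 7.11. The strongest, from 5522837 to 5523762, ranked 502 of 6013, and at 926 bp it was wider than 99.2% of HMGB2 peaks.

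SON at ACTB was found at 3 days only. No untreated and no 6-day peak lay in the window, and the nearest ones were 95.4 kb and 162 kb away, both in RNF216. At 3 days a peak of 615 bp lay inside the gene, with a −log10 p of 6.09 in replicate 1 and 19.3 in replicate 2. Its IDR was 0.182. By the lower replicate it ranked 9972 of 11158, the 10.6 percentile, and by the higher replicate it lay at the 74.5 percentile. None of the 7 HMGB2 peaks overlapped a SON peak of any list.

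ACTG1 (chromosome 17, 81509971 to 81512799) carried both proteins on its start. The untreated SON peak had a −log10 p of 9.03 in both replicates, an IDR of 0.0161 and rank 12720, and its point lay 19 bases before the start. The HMGB2 peak there had a −log10 p of 11.1, a fold of 5.17 and its point 1 base before the start. A pair of further HMGB2 peaks, with folds of 7.18 and 6.04, lay 2617 and 2167 bases past the 3′ end. No SON peak was found at 3 or 6 days, where the nearest lay 53.7 and 114 kb away. The HMGB2 peak at the start shares its −log10 p and fold exactly with a peak at ACTB and with another at MYH9, and 27 peaks of the list carry that same pair of values.

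CCN1 and CCN2 encode secreted proteins of the matrix and are standard YAP and TEAD target genes. Their SON peaks stood out by width. In untreated cells the peak over the CCN2 gene was 2371 bp wide and the peak over CCN1 2370 bp, where the list median was 412 bp. These were the widest and second widest of the 22216 untreated SON peaks on chromosomes 1 to 22 and X, and the next, of 1984 bp, lay in FOS. Both were weak in −log10 p (6.32 and 6.24) and had the largest IDR of the list, 0.431. At CCN2 both replicates were wide, 2231 and 2371 bp. At CCN1 replicate 1 was 2370 bp wide and replicate 2 was 867 bp wide, with −log10 p of 6.24 and 13.4.

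The wide SON peak of CCN2 (gene span on chromosome 6, 131948176 to 131951372) was present in every SON list. At 3 days it was 1548 bp wide, sixth of 11028 on these chromosomes, with −log10 p of 20.5 and 10.7 in the replicates and an IDR of 0.138. At 6 days it was 2317 bp wide, the widest of 5481 on these chromosomes, with −log10 p of 9.06 and 8.62 and an IDR of 0.219. It ranked 19303 of 22362 untreated, 4129 of 11158 at 3 days and 2753 of 5583 at 6 days. A narrower untreated peak of 472 bp lay on the CCN2 promoter shown above, with −log10 p of 14.2 and 18.9, an IDR of 0.024 and its point 122 bases before the start. No 3-day or 6-day peak overlapped it, so the gene-body peak was the one found again.

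CCN1 (chromosome 1, 85580761 to 85583950) kept no SON peak in either treated list, where the nearest lay 28 and 44.8 kb away. Its second untreated peak lay 2.11 kb before the lower-coordinate end, with −log10 p of 15.7 and 18.2 in the replicates and an IDR of 0.00902. HMGB2 had 4 peaks at CCN1, with folds of 3.96, 4.46, 6.10 and 5.40 from low to high coordinate. The last of these, with points 1.29 and 2.03 kb beyond the upper end, lie past the 3′ end, since CCN1 is transcribed towards higher coordinates (background knowledge). The first, from 85577008 to 85577249, overlaps the neighbouring gene DDAH1.

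HMGB2 had 5 peaks at CCN2. The strongest lay on the promoter, with a −log10 p of 13.8, a fold of 4.41 and its point 35 bases before the start. Another lay inside the gene, under the wide SON peak, with a fold of 4.24. The other 3 lay past the 3′ end by 1.17, 1.55 and 2.42 kb, with folds of 4.40, 4.02 and 3.38, all over the non-coding gene CCN2-AS1. Of the promoter peaks at CCN2, the HMGB2 peak lies within the untreated SON peak.

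**Figure D2:**
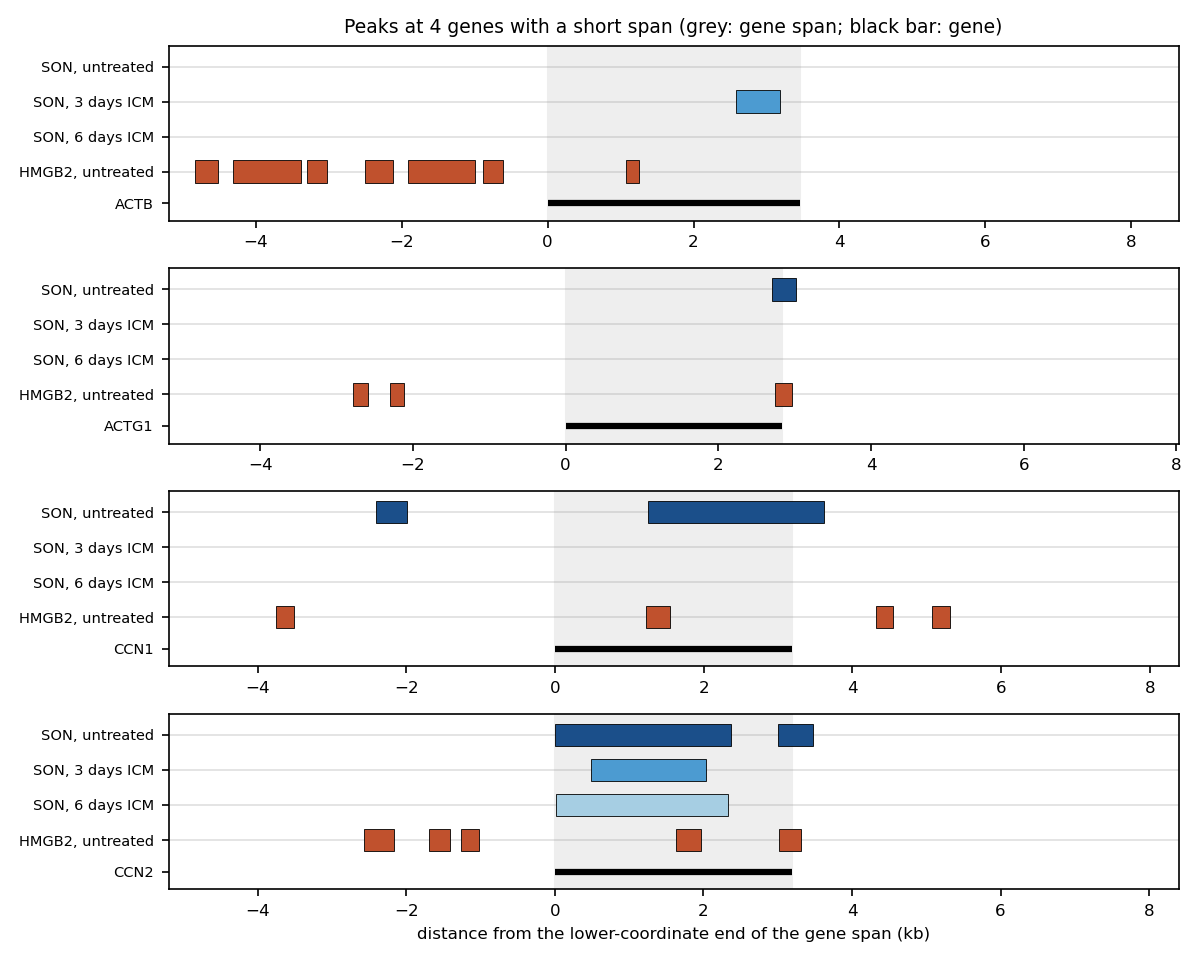
Peaks at ACTB, ACTG1, CCN1 and CCN2 by distance from the lower-coordinate end of the gene span in kb (x axis), 1 row per list, with the gene as a black bar. HMGB2 peaks lie outside the span at all 4 genes, and the wide SON peaks over CCN1 (2370 bp) and CCN2 (2371, 1548 and 2317 bp) cover a large part of the gene.

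Peaks past the 3′ end were counted for all genes whose strand is known. Among the 6 members with a strand, 3 (ACTG1, ACTA2 and CCN2) had an HMGB2 peak point within 5 kb past the 3′ end, against 4.28% of 15813 genes. At ACTA2 the point lay 79 bases past the end, in a peak that also overlaps the gene span. None of the 6 had an untreated SON peak point there, against 9.69% of genes. ACTB and CCN1, for which the tables give no strand, are not in these counts. Neighbouring genes were not removed from either share. An HMGB2 peak lay in the windows of 9 of the 10 members, against 23.3% of all genes. The share past the 3′ end among genes with an HMGB2 peak was not taken, so these counts describe the members only.

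ACTA2 is the smooth muscle actin that marks myofibroblasts, and TAGLN encodes transgelin, an actin-binding protein of smooth muscle and activated fibroblasts. ACTA2 (chromosome 10, 88935074 to 88991337) has a distal start at the upper end of this span and an internal start at 88952773. The untreated SON peak lay 1008 bases past the internal start, inside the gene, with −log10 p of 12.4 and 16.4 in the replicates and an IDR of 0.0286. An HMGB2 peak coincided with it, with a −log10 p of 13.7, a fold of 3.90 and rank 1211. A second HMGB2 peak, with a fold of 5.08, had its point 71 bases before the internal start. Another, with a fold of 5.21, had its point 79 bases past the 3′ end. The last, with a fold of 3.22, lay 1122 bases past the distal start, where FAS also lies. At 3 days the nearest SON peak was 7.85 kb outside the span, just beyond the window, with an IDR of 0.447, the largest of that list. At 6 days the nearest was 260 kb away.

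TAGLN (chromosome 11, 117199294 to 117207465) carried 1 untreated SON peak and 1 HMGB2 peak, on the same place at the lower-coordinate end of its span, which is its start (background knowledge). The SON peak had a −log10 p of 24.03 in both replicates, an IDR of 0.0036 and rank 2494, and its point lay 97 bases outside the span. The HMGB2 peak had a −log10 p of 16.7, a fold of 6.68 and rank 664, with its point 76 bases outside the span. The non-coding gene LOC100652768 overlaps both. No SON peak was found at 3 or 6 days within 20.4 and 73.7 kb of the gene. TAGLN was the highest of the members found in the untreated SON list but in neither treated SON list.

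MYH9 encodes the heavy chain of non-muscle myosin IIA, the motor of stress fibres, and MYL9 a regulatory light chain of smooth muscle and non-muscle myosin. MYH9 (chromosome 22, 36281280 to 36387967) is the longest member, at 107 kb, and carried 6 untreated SON peaks and 6 HMGB2 peaks. The strongest SON peak lay deep in the gene, 85922 bases from the start, with a −log10 p of 37.8 in both replicates, an IDR of 0.00167 and rank 951. It was found at 3 days, with 13.2 in both replicates and rank 2837 of 11158, and at 6 days, with 16.3 and 15.3 and rank 537 of 5583. No HMGB2 peak overlapped it in untreated cells.

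The MYH9 promoter carried the next strongest untreated SON peak, with a −log10 p of 27.7 in both replicates and an IDR of 0.00286. It was found at 3 days, with 12.8 and 12.9 in the replicates, and not at 6 days. The HMGB2 peak on the promoter was weak within its list, at a −log10 p of 6.96. Its fold was 2.62, which puts it at the 1.73 percentile of the list by fold. This HMGB2 peak and the 3-day SON peak overlap the divergent non-coding gene MYH9-DT and not the MYH9 span. The untreated SON peak overlaps both genes. The 4 remaining untreated SON peaks, with −log10 p from 6.50 to 20.2, had no counterpart at 3 or 6 days. HMGB2 peaks met 2 of these 4, at 36286619 to 36286847 and at 36352776 to 36353019.

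MYL9 (chromosome 20, 36541519 to 36551447) had no peak within 5 kb in any list. The nearest SON peak was the same place in all 3 SON lists, 53.9 to 54.0 kb away over TGIF2-RAB5IF, with −log10 p of 31.3, 10.8 and 9.03. The ranks of these peaks in their own lists were 1425, 4047 and 2422. The nearest HMGB2 peak was 282 kb away in MTCL2.

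TPM1 encodes an alpha tropomyosin, which lies along the filament, and FLNA the crosslinker filamin A. TPM1 (chromosome 15, 63042747 to 63071915) carried SON on its internal start at 63048489 in untreated cells. Both replicates gave a −log10 p of 11.9 there, and the IDR was 0.011. The same place was found at 3 days, with 10.997 and 31.3 in the replicates and an IDR of 0.0528, and not at 6 days. A second untreated peak at the lower-coordinate end of the span had 5.65 and 12.6 in the replicates and the largest IDR of the list. The 3 HMGB2 peaks of TPM1 lay inside the gene, 3032, 7047 and 8494 bases past that start, with folds of 5.82, 3.88 and 6.32. None of them met a SON peak, unlike at the other members among the 8 that carried both proteins in untreated cells. Of all genes with both proteins, 84.6% had such an overlap.

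The strongest peaks in the FLNA window (gene span on chromosome X, 154348531 to 154374634) belong by position to a neighbour. They lay 4.36 to 4.50 kb beyond the FLNA start, and in the 3 SON lists they covered the start of EMD, the gene of the nuclear envelope protein emerin. Their −log10 p was 44.5 in both replicates in untreated cells, 38.3 and 52.8 at 3 days, and 20.4 and 17.5 at 6 days, with ranks of 643, 520 and 365. Their IDR was 0.00125, 0.000558 and 0.00692. An HMGB2 peak with a fold of 3.86 lay there too, its point 300 bases before the EMD start. With windows of 1 kb the SON counts at 3 and 6 days lost FLNA. Inside FLNA there remained an untreated SON peak with −log10 p of 7.06 and 10.99 in the replicates and an IDR of 0.142, and an HMGB2 peak with a fold of 4.16, and no SON peak at 3 or 6 days.

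**Figure D3:**
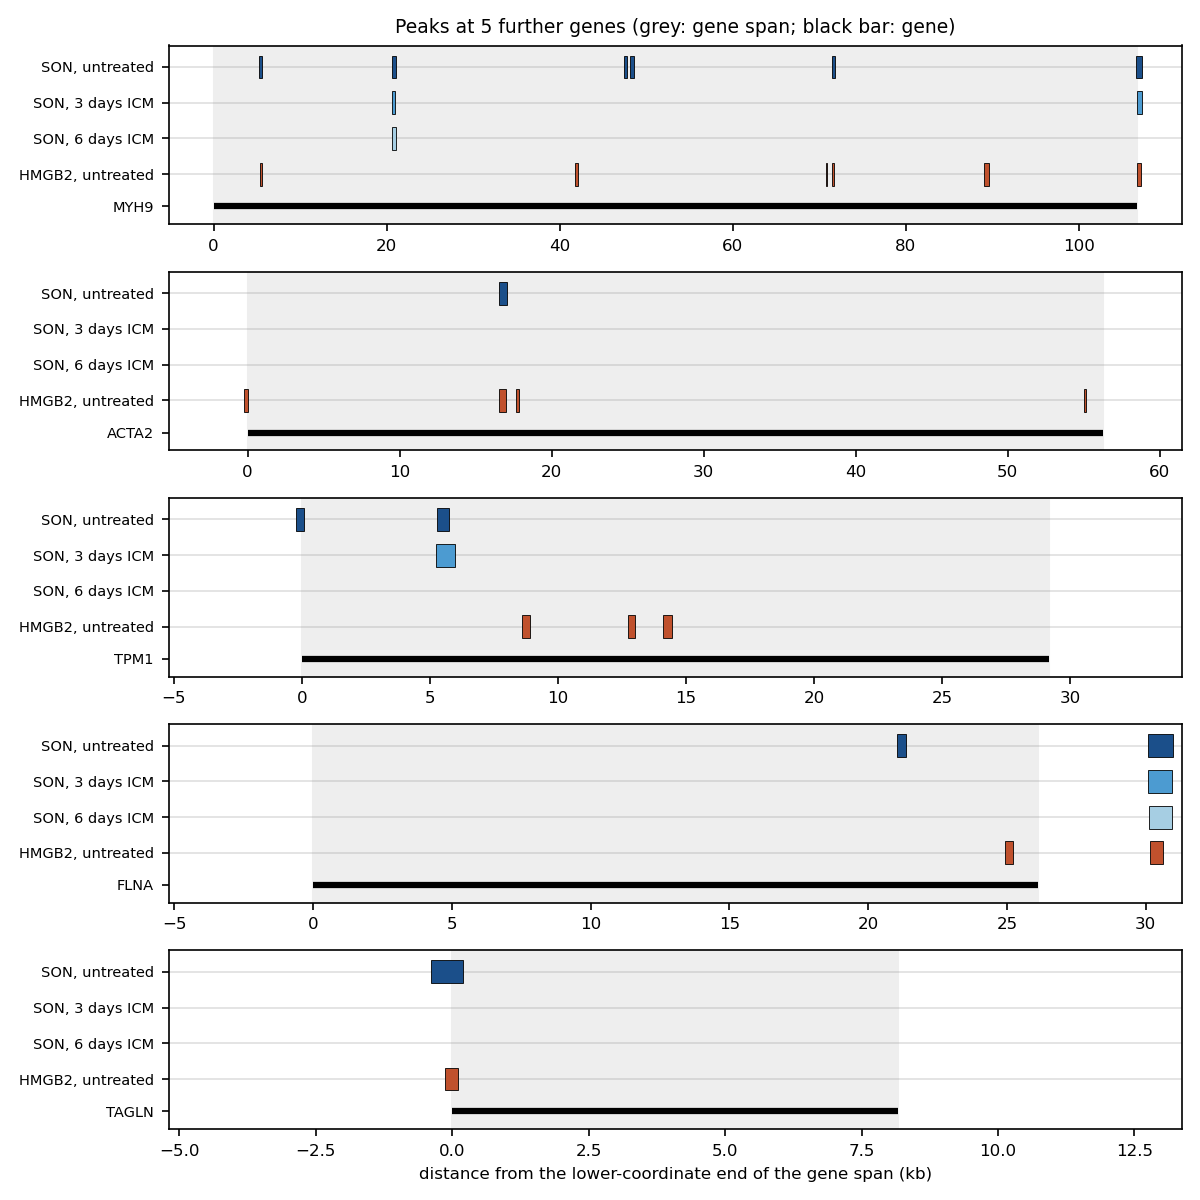
Peaks at MYH9, ACTA2, TPM1, FLNA and TAGLN by distance from the lower-coordinate end of the gene span in kb (x axis, different scale in each panel), 1 row per list. A SON peak in MYH9 20.8 kb from that end and the peaks beyond FLNA, over the EMD start, are in all 3 SON lists.

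Counted over peaks rather than genes, SON and HMGB2 met unevenly at these loci. Of the 17 untreated SON peaks in the windows, 10 (58.8%) overlapped an HMGB2 peak, against 16.5% of all untreated SON peaks. Of the 35 HMGB2 peaks, 10 (28.6%) overlapped an untreated SON peak, against 62.4% of all HMGB2 peaks. The 7 peaks at ACTB and the others past 3′ ends are among the 25 that did not, and peaks of the same gene are not independent. Both references run over whole lists, in and out of gene windows. The member windows were listed with earlier results known, and 9 of 10 hold an HMGB2 peak. These peak shares are therefore of unlike sets, and the difference was not tested. By gene, 7 of the 8 members with both proteins had overlapping peaks, against 84.6% of such genes. FLNA is among the 7 only by its peaks near the EMD start.

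Of the 17 untreated SON peaks, 5 (29.4%) were met by a 3-day peak and 3 (17.6%) by a 6-day peak, where all untreated peaks gave 45.7% and 22.2%. By gene, 4 of the 8 members with an untreated peak kept a peak at the same place at 3 days (69.1% of all such genes) and 3 of 8 at 6 days (35.7%). The genes found again at 6 days were CCN2, MYH9 and, over EMD, FLNA. TPM1 was found again at 3 days only.

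**Figure D4:**
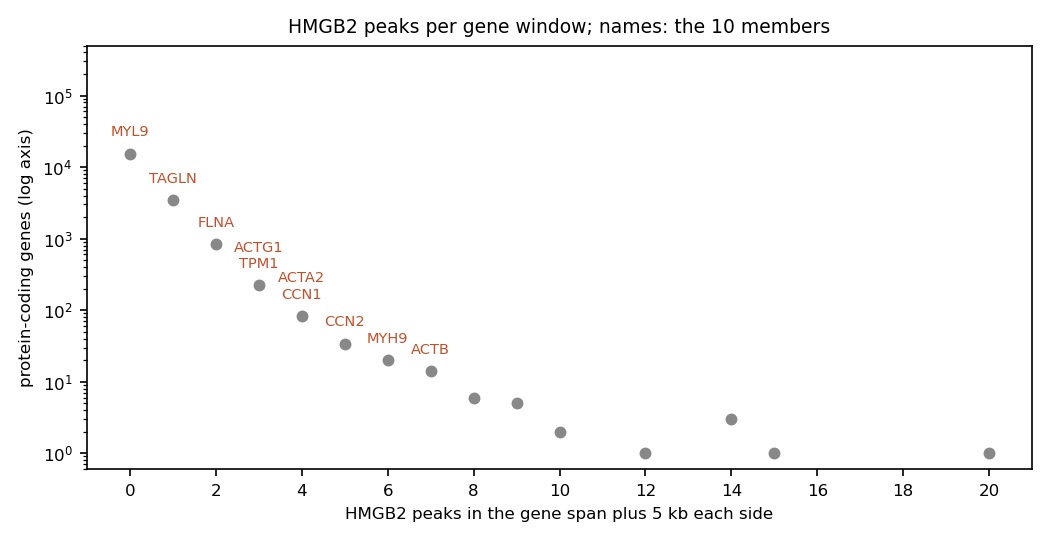
Number of protein-coding genes (y axis, log scale) by the number of HMGB2 peaks in the gene span plus 5 kb each side (x axis), with the 10 members named at their number. ACTB, with 7 peaks, is among the 33 genes with 7 or more, and 390 of 19974 genes have 3 or more.

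Pooled over the members, HMGB2 peaks were many and near the list medians in strength. Their median −log10 p was 9.43, where the list median was 9.52, and their median fold was 5.08, where the list median was 4.89. Their fold ranged from 2.62 at the MYH9 promoter to 7.18 past ACTG1. The strongest HMGB2 peak of each member, at most members the best of several, had a median percentile of 76.6. For SON the median −log10 p of the members' peaks, in the order of the time points, was 11.9, 11.9 and 15.3, where the list medians were 9.91, 9.10 and 8.55. The 6-day value rests on 3 peaks.

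**Figure D5:**
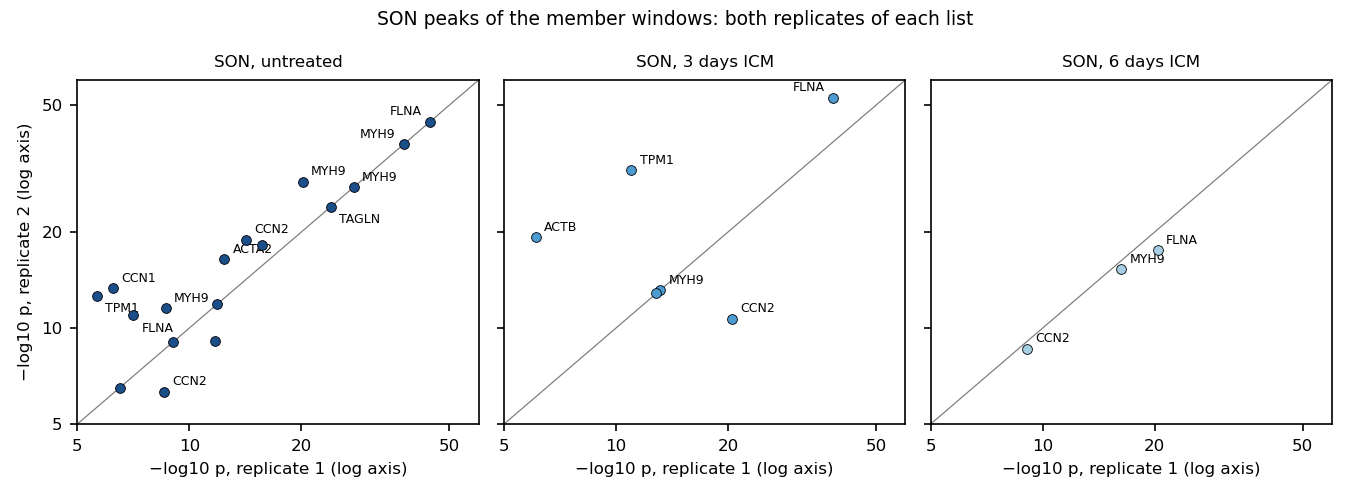
The −log10 p of both replicates for each SON peak in the windows (log axes), 1 panel per SON list, with the line of equal values. In untreated cells 7 of 17 peaks lie exactly on the line, and at 3 days ACTB, TPM1 and CCN2 lie farthest from it.

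Some SON peaks had the same value in both replicates. In 7 of the 17 untreated peaks both replicates carried an identical −log10 p, as in 55.9% of the whole list. This held for 1 of 6 peaks at 3 days (29.0% of the list) and 0 of 3 at 6 days (9.49%). Whether reads were shared between replicates is not stated, nor whether they came from separate cultures. An IDR of at most 0.05 was met by 10 of the 17 untreated peaks (59.7% of the list), by 3 of 6 at 3 days (41.8%) and by 2 of 3 at 6 days (16.03%). At 3 days the peaks that met it lay at MYH9 (2) and beside FLNA, and at 6 days at MYH9 and beside FLNA. By the ratio of both values, the replicates were farthest apart at ACTB at 3 days.

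Other genes of the system were read from lists of related genes. HMGB2 was at 14 of 20 smooth muscle and contractile genes and at 22 of 31 genes of actin binding, crosslinking and adhesion, against 23.3% of all genes. It was at 5 of 18 Arp2/3 and formin genes, at 4 of 9 SRF and MRTF regulators and at 11 of 25 YAP, TAZ and TEAD genes. It was at none of 21 muscle actin and striated muscle genes, where untreated SON was at TNNC2 alone. Untreated SON was at 17 of 20, 25 of 31, 16 of 18, 8 of 9 and 17 of 25 in the order in which the first 5 lists are named. At 6 days it was at 6, 13, 9, 3 and 7 of the same lists. Lists were given no test, and the shares of all genes (57.1% and 21.5%) are the only reference.

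Within these lists, 5 of the 20 contractile genes had peaks in all 4 lists, against 10.6% of all genes: SMTN, PPP1R12B, CNN2, LMOD1 and MYLK. SMTN encodes smoothelin and CNN2 a calponin, both actin-binding, and MYLK the kinase of myosin light chains. CNN2 had 4 HMGB2 peaks, the strongest with a −log10 p of 35.5, above those of all 10 members. MYLK had 7 HMGB2 peaks, a number reached or passed by 33 genes, and 9 untreated SON peaks. Wider windows can hold more peaks, and the part of window width in these counts was not tested. Peaks in all 4 lists were at 10 of the 31 genes of actin binding, crosslinking and adhesion. Of these 10, those with the highest mean percentile were ACTN4, TLN1, VCL, CFL1, GSN and FLNC. ACTN4, the crosslinker alpha-actinin 4, had its strongest SON peak at the 99.4 percentile untreated, 99.5 at 3 days and 96.5 at 6 days. The −log10 p of these peaks was 90.3, 146 and 24.7, each read within its own list only. CFL1, the filament-severing cofilin, had 5 HMGB2 peaks, with a highest fold of 9.98.

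Among the SRF and MRTF regulators, 2 of 9 had peaks in all 4 lists, MRTFA and ELK3. Of the Arp2/3 and formin genes 3 of 18 did, ARPC2, DAAM1 and FMNL3. SRF itself had 3 or more HMGB2 peaks and an untreated but no 6-day SON peak. Of the YAP, TAZ and TEAD genes, 5 of 25 had peaks in all 4 lists: AXL, NF2, TEAD1, YAP1 and WWTR1. The share of all genes with peaks in all 4 lists was 10.6%, and these small counts were not tested against it. TEAD1 had 4 HMGB2 peaks, with a highest fold of 9.24. ANKRD1, another target of YAP and TAZ, had neither an untreated SON nor an HMGB2 peak.

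A mean percentile of the strongest peak over the 4 lists exists for the 3 members found in all of them. It was 81.5 for FLNA, from the peaks at or just before the EMD start, 81.2 for MYH9 and 66.2 for CCN2, so FLNA was first by a small margin. The genes nearest to FLNA in the percentiles of the strongest peak of each list, over 4 lists and among 2117 genes with peaks in all of them, were TMEM170A at a distance of 0.52 percentile points, and CRIP1 and TEDC1 at 1.22, which share their peaks. Peaks do not measure expression, so the cell type could not be checked by it. Of the fibroblast marker genes 7 of 8 carried an untreated SON peak and 4 of 8 an HMGB2 peak, against 57.1% and 23.3% of all genes. HMGB2 was at 0 of 5 epithelial, 0 of 3 endothelial and 0 of 3 blood marker genes. Untreated SON was at 1 of 5, 2 of 3 and 1 of 3 of these. Marker lists this short were not tested against the shares of all genes.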

How the data were processed

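The data were 4 peak lists, 1 per group, of a series of 6 samples. Per the submitters' processing notes, the build was hg38 and the tools named were bcl2fastq 2.17, Bowtie2, deepTools and MACS2, with no role or order given. Filters, control and depth are not given in the sources used here. The authors' SON lists are in the layout of the IDR tool on 2 replicates. They deposited a −log10 p per replicate, of which the lower is the value of the peak, the −log10 of the global IDR, and an IDR score. Other SON columns deposited by the authors are placeholders of −1 and were not used. The HMGB2 list holds, as deposited, a −log10 p, a −log10 q, a fold enrichment and a score.

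Gene spans and promoters came from RefSeq tables of GRCh38.p14, and 6 of 10 members had a promoter entry, which also gives the strand. Peaks were counted in a window by at least 1 bp of overlap, and lists were compared by the same rule. Ranks and percentiles are over all lines of a list. Coordinates are 1-based. The counting was tested on simulated data. Members, gene lists and motifs were chosen with earlier results of these data known. All members are described. Of the related genes, those with a peak in every list are named, at most 6 per list by mean percentile, and others named were chosen after their values were seen. The result of 1 further gene list is not reported here. The planned count near the start covers only genes with a promoter entry. Python 3.11.15 was used with matplotlib 3.10.9, scipy 1.17.1, pandas 2.3.3 and numpy 2.4.6.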

Additional observations from a re-analysis of the deposited data

How the results depend on the processing

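Of the 45 alternatives run, 34, all on counts of members, left the count within 1.5 times its value. The other 11 were counted as moved, among them every alternative on the median percentile. Within 1 kb of an annotated start, read only for the 6 members with a promoter entry, untreated SON was at 5 (43% of all genes), 3-day SON at 2 (30.4%), 6-day SON at 1 (12.6%) and HMGB2 at 5 (16.2%). With equal list lengths untreated SON was at 4 of 10 (26.2% of all genes), and an IDR of at most 0.05 left 2 of 10 at 3 days (24%). The stronger 50% of both lists left 3 members with overlapping HMGB2 and untreated SON peaks. Shorter lists can only lose overlaps, and no share of all genes was taken at this cut. The median percentile of the strongest peak per member was 72.9, 64.7, 90.4 and 76.6 in the SON lists in order of time and the HMGB2 list, and 78.1, 76.2, 80.9 and 77.8 by the higher replicate or, for HMGB2, by fold. Leaving out peaks that lie in another protein-coding gene, an alternative chosen after seeing the data, gave 8, 4, 2 and 9 members. No share of all genes was taken under this rule, so these counts have no reference. No paired analysis was possible because each group has 1 list, and no replicate could be left out. Depth is unknown, so a missing peak was not detectable at these thresholds and is not shown to be absent.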
